A study of Mus musculus with 4 samples.

Results

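The transgenic cytokines of the NSG-SGM3 host and the human receptors that bind them were followed at the transcript level. The 7 genes were taken by name from the 33538 human genes of the count tables, but with earlier results of these data known. The 3 ligands were KITLG (ENSG00000049130), which encodes stem cell factor (SCF), CSF2 (ENSG00000164400), which encodes GM-CSF, and IL3 (ENSG00000164399). The 4 receptor genes were KIT (ENSG00000157404), the SCF receptor, CSF2RA (ENSG00000198223) and IL3RA (ENSG00000185291), the ligand-specific alpha chains of the GM-CSF and IL-3 receptors, and CSF2RB (ENSG00000100368), the beta chain that both of these receptors share with the IL-5 receptor.

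Human immune cells from huNSG-SGM3 mice were profiled by droplet-based 3′ scRNAseq, in which each unique molecular identifier (UMI) counts 1 captured transcript. There were 4 libraries, 1 each from naïve blood, sham blood, SCI blood and the injured cord, with cells pooled from different animals, and all sorted for human CD45. By the study's account, only the cord was also digested with enzymes and enriched on magnetic beads before the sort. Between cord and blood, tissue and tissue processing thus cannot be told apart. All hosts, with a labelled age of 15 weeks, were NSG-SGM3 mice, labelled NOD.Cg-Prkdcscid with IL2rgtm1Wjl, alleles that leave the host without functional lymphocytes, and with the transgenes Tg(CMV-IL3,CSF2,KITLG)1Eav/MloySzJ; all had been irradiated as pups and engrafted with human CD34+ stem cells from cord blood. Naïve animals had no surgery, sham animals had a T9 laminectomy and SCI animals a contusive T9 spinal cord injury, the operated groups being sampled 7 days later. Naïve and sham hosts were male whereas SCI hosts were of both sexes, so that host sex and injury cannot be told apart. With 1 library per group there was no test between conditions; every interval below is an exact 95% interval (Poisson for counts, binomial for shares and ratios) that covers counting error only and no difference between animals.

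SCF acts through KIT on stem cells and on mast cells, for which it is the main survival factor. IL-3 and GM-CSF are made mostly by activated T cells and act on basophils, eosinophils, monocytes and their precursors, where the alpha chain binds the ligand and CSF2RB carries the JAK2 and STAT5 signal. The human forms of IL-3 and GM-CSF act poorly or not at all on mouse receptors, and the transgenes were put into this strain to help human myeloid cells grow. Each SGM3 transgene is driven by a CMV promoter, which is active in many cell types, and is followed by a human growth hormone cassette, so that the growth hormone locus genes were counted beside the ligands. The human CMV promoter sets where the transgenes are read and is not the control of the native genes.

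The libraries held 8124, 6962, 7513 and 231 barcodes (naïve, sham, SCI blood and SCI cord libraries) and 110863423 UMIs in all. Barcodes with over 50% mouse UMIs numbered 4724 (1411, 1990, 1230 and 93) and are called mouse barcodes here. They are host cells that came through a sort for human cells, and thus no sample of host tissue at large. Of the 18106 human barcodes, 17049 were kept as cells, and PTPRC, the gene for the sorted CD45, had a UMI in 96.6% to 99.4% of these per library, against 2.91% to 5.28% of mouse barcodes. Between 0 and 16 cell barcodes were shared by any pair of libraries.

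The ligand transcripts lay mostly in mouse barcodes. Over all libraries, 87 of 90 IL3 UMIs (96.7%, interval 90.6% to 99.3%), 117 of 138 KITLG UMIs (84.8%, 77.7% to 90.3%) and 195 of 295 CSF2 UMIs (66.1%, 60.4% to 71.5%) were counted there. Growth hormone locus genes stood with them, with 75 of 76 CSH2 UMIs (98.7%) and 3713 of 4053 GH1 UMIs (91.6%) in mouse barcodes, although reads of these near-identical gene copies cannot be split with certainty. Of 15718 human genes with at least 20 UMIs, these 5 were the genes with over 50% of their UMIs in mouse barcodes. HBB, a globin gene with 5 of 25 UMIs (20.0%), came next, and the median gene had 0.250%. The 4 receptors were far below the ligands, with 0.757% of IL3RA (0.364% to 1.39%), 0.695% of CSF2RB (0.398% to 1.13%), 0.616% of KIT and 0.362% of CSF2RA UMIs in mouse barcodes. The IL3RA and CSF2RB intervals lay above the 0.269% of all human UMIs and below the 2.93% that marks the top 1% of genes.

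**Figure D1:**
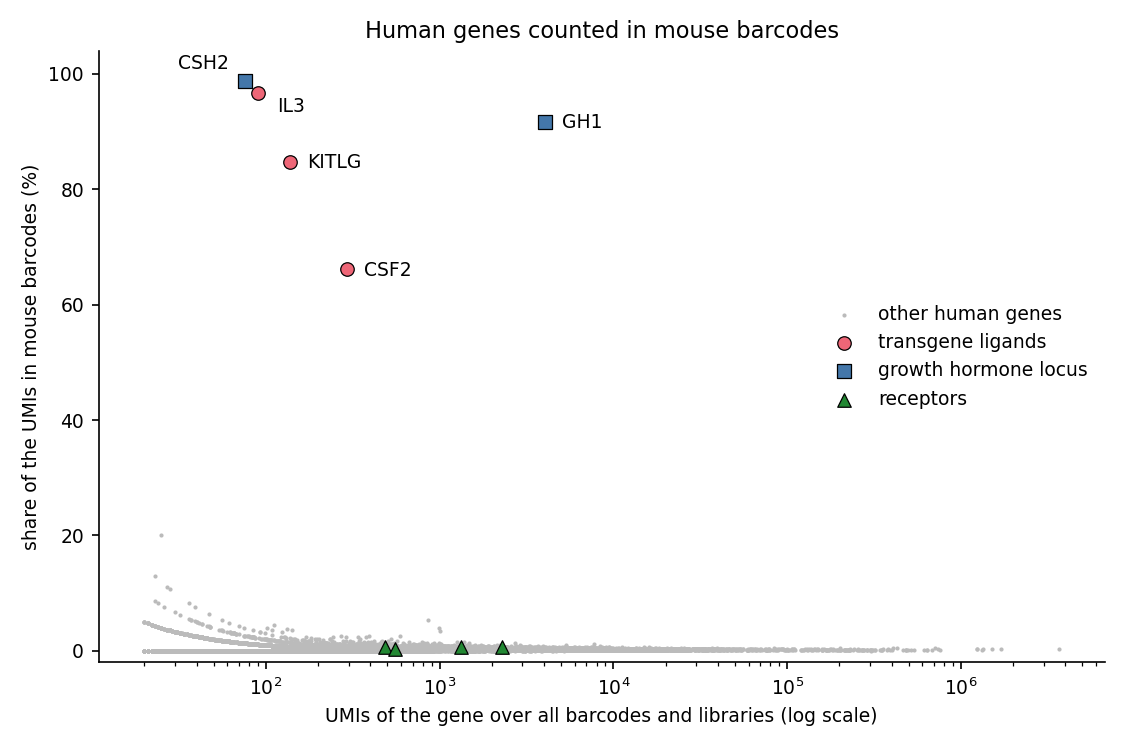
Share of each human gene's UMIs that fell in mouse barcodes, for 15718 genes with at least 20 UMIs, with the member genes and the growth hormone genes marked. IL3, KITLG and CSF2 lie at 96.7%, 84.8% and 66.1%, whereas the 4 receptors lie under 1% with nearly all other genes.

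In mouse barcodes, KITLG had 0, 57, 49 and 11 UMIs in the naïve, sham, SCI blood and SCI cord libraries, which is 0, 9.44, 16.0 and 4.06 counts per 1000000 UMIs of these barcodes (CPM). CSF2 had 2, 138, 42 and 13 UMIs, or 0.688, 22.9, 13.7 and 4.80 CPM. IL3 had 0, 57, 20 and 10 UMIs, or 0, 9.44, 6.51 and 3.69 CPM. All 3 ligands were therefore counted in sham and SCI blood and in the cord, while naïve blood held 2 ligand UMIs in 1411 mouse barcodes. A count of 0 in the naïve library allows up to 1.03 CPM. GH1 had 19, 2796, 581 and 317 UMIs, the same order of libraries as for CSF2, and its UMIs were in 985 mouse barcodes. The ligand UMIs were thin, with KITLG in 61 mouse barcodes, CSF2 in 162 and IL3 in 68, and no barcode above 8 UMIs of a ligand. For KITLG, 13 barcodes with at least 3 UMIs held 57 of the 117.

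The mouse barcodes differed in make-up between the libraries. Erythroid-like barcodes, named from globin and other red cell markers, made up 1350 of the 1411 in naïve blood, but numbered 396, 389 and 2 in the sham, SCI and cord libraries. Neutrophil-like barcodes numbered 20, 1172, 563 and 2. Microglia-like barcodes were the main class of the cord, with 88 of 93.

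Erythroid-like barcodes held no ligand UMI in 2137 barcodes, which allows up to 0.558 CPM, and had 2 GH1 UMIs. Ligand transcripts were found in the host leukocytes. In neutrophil-like barcodes of all libraries, KITLG was at 24.1 CPM (19.1 to 29.999), CSF2 at 36.3 (30.04 to 43.4), IL3 at 16.5 (12.4 to 21.5) and GH1 at 696. A further class of 451 barcodes with both platelet and neutrophil markers gave 18.7, 35.2, 16.5 and 683 CPM for the same genes. Monocyte- or macrophage-like barcodes had 1.03 CPM for KITLG (2 UMIs), 7.74 for CSF2, 0 for IL3 (up to 1.55) and 110 for GH1. Microglia-like barcodes had 4.04, 5.14, 4.04 and 108 CPM, nearly all from the cord, where 11 KITLG, 13 CSF2 and 10 IL3 UMIs were counted in 88 barcodes. For each ligand, the neutrophil-like CPM interval lay above those of the monocyte- or macrophage-like and microglia-like classes. Median depth was 1713, 7015 and 26252.5 UMIs per barcode in these classes. Counted per barcode, the order differed. KITLG, CSF2 and IL3 were found in 2.33%, 5.98% and 2.50% of neutrophil-like and 0.820%, 5.33% and 0% of monocyte- or macrophage-like barcodes. Microglia-like barcodes had 7.45%, 10.6% and 6.38%, with intervals that overlapped the neutrophil-like ones. In naïve blood the 20 neutrophil-like barcodes held 6 GH1 UMIs and 1 CSF2 UMI, so that the ligands could not be measured there at this depth.

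**Figure D2:**
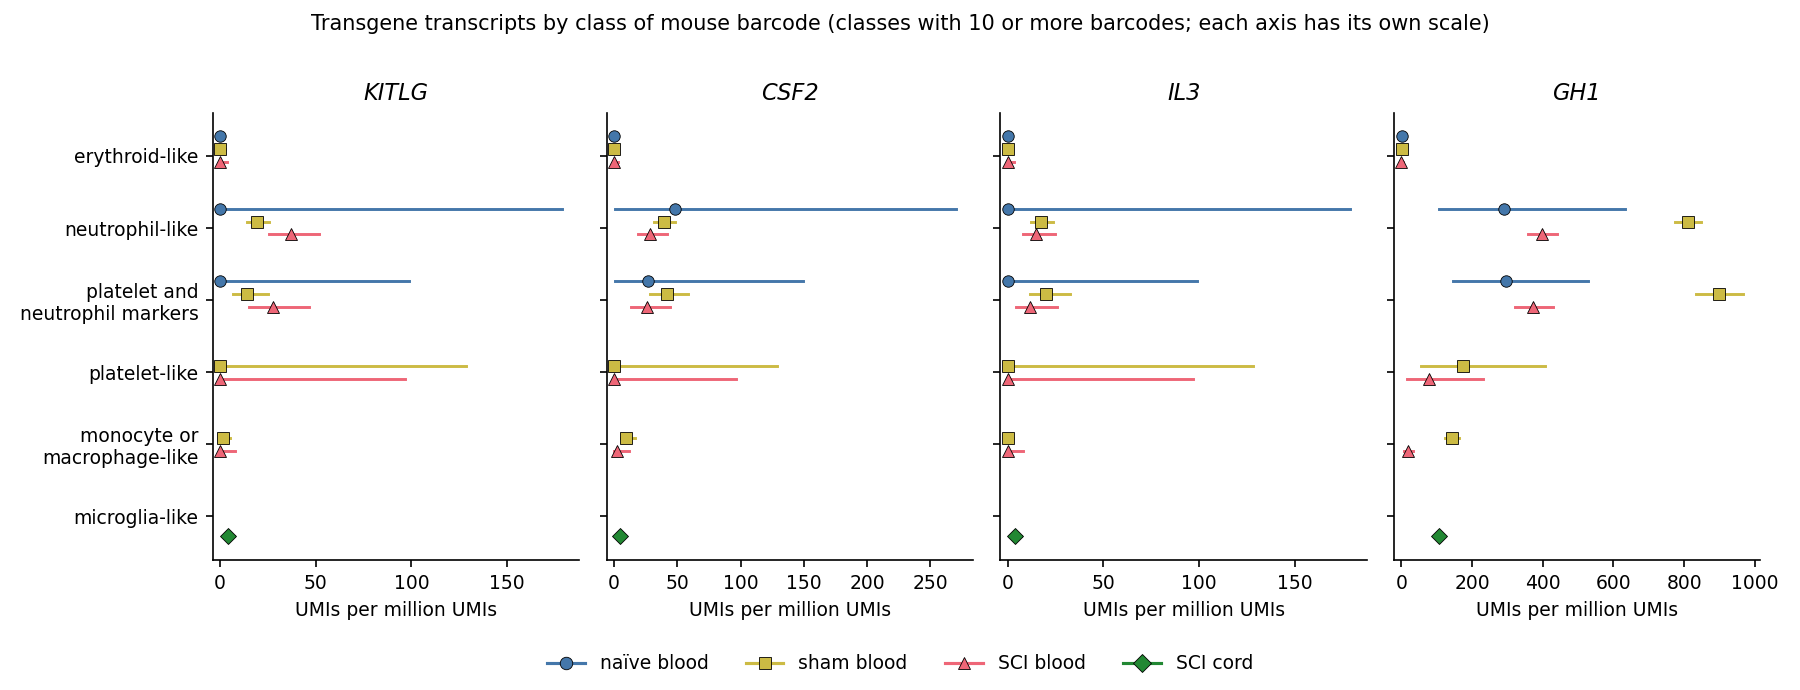
KITLG, CSF2, IL3 and GH1 CPM in each class of mouse barcodes, drawn separately for each library, with exact 95% Poisson intervals. Classes with few barcodes in a library are not drawn. Erythroid-like barcodes are at 0 for the ligands. With all libraries summed, as in the text, the neutrophil-like class and the class with platelet and neutrophil markers stand highest for each gene.

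Between sham and SCI blood, neutrophil-like barcodes could be compared. KITLG was at 19.0 CPM in sham blood (44 UMIs) and 37.0 in SCI blood (35 UMIs), a log2 ratio of 0.96 (0.28 to 1.63). GH1 went the other way, from 810 to 399 CPM, with a log2 ratio of -1.02 (-1.19 to -0.86). CSF2 was at 39.4 and 28.6 CPM (log2 ratio -0.46, -1.14 to 0.17) and IL3 at 17.3 and 14.8 (-0.23, -1.22 to 0.68), so that neither difference was larger than counting error. In monocyte- or macrophage-like barcodes GH1 was also lower in SCI blood, with 8 UMIs in 67 barcodes against 205 in 168 (log2 ratio -3.05). These values rest on 1 library each, and a difference between animals in transgene expression cannot be told apart from injury.

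The ligands were found in the same barcodes as GH1 more often than elsewhere. Of 2587 mouse barcodes outside the erythroid-like class, 983 had a GH1 UMI. A CSF2 UMI was found in 15.0% of these (147) and in 0.935% of the others (15). KITLG was found in 4.58% against 0.998%, and IL3 in 5.29% against 0.998%. Median depth was 1959 UMIs with and 1789 without GH1, and whether a GH1 UMI came from a transgene transcript was not tested. The barcodes were pooled over classes and libraries that differed in both GH1 and ligand levels. Co-occurrence within a class and library is not given.

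The host's own versions of these genes were counted on the mouse part of the reference. Mouse Csf2 and Il3 had 0 UMIs in all 4 libraries. Kitl, mouse SCF, had 16 UMIs in 12 microglia-like barcodes of the cord and 0 in blood. The mouse receptor genes were by contrast well detected in the host leukocytes, with 10, 863, 320 and 719 UMIs of Csf2ra and 28, 1160, 531 and 176 UMIs of Csf2rb in the naïve, sham, SCI blood and SCI cord libraries. Neutrophil-like barcodes had 279 CPM of Csf2rb and 0.609 of Il3ra, whereas microglia-like barcodes had 64.3 and 40.4. Csf2rb2, the mouse copy of the beta chain that serves IL-3 alone, was at 30.5 and 30.1 CPM in these classes.

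Human barcodes held few ligand transcripts, and all of those for IL3 lay in barcodes with many mouse UMIs. Of the 18106 human barcodes, 16915 had under 1% mouse UMIs, 792 had 1% to 10% and 399 had 10% to 50%. IL3 had 0, 0 and 3 UMIs in these ranges. KITLG had 10, 0 and 11 UMIs, from 6, 0 and 3 barcodes, 8 of the 11 being in 1 barcode, and CSF2 had 80, 0 and 20. GH1, which human leukocytes are not known to express in quantity, had a UMI in 0.514%, 0.631% and 19.5% of the barcodes. The share of barcodes with GH1 among those with under 1% mouse UMIs was 0.177%, 1.29% and 0.236% for naïve, sham and SCI blood and 1.85% for the cord (2 of 108), and was highest in the blood library with most GH1 in its mouse barcodes.

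**Figure D3:**
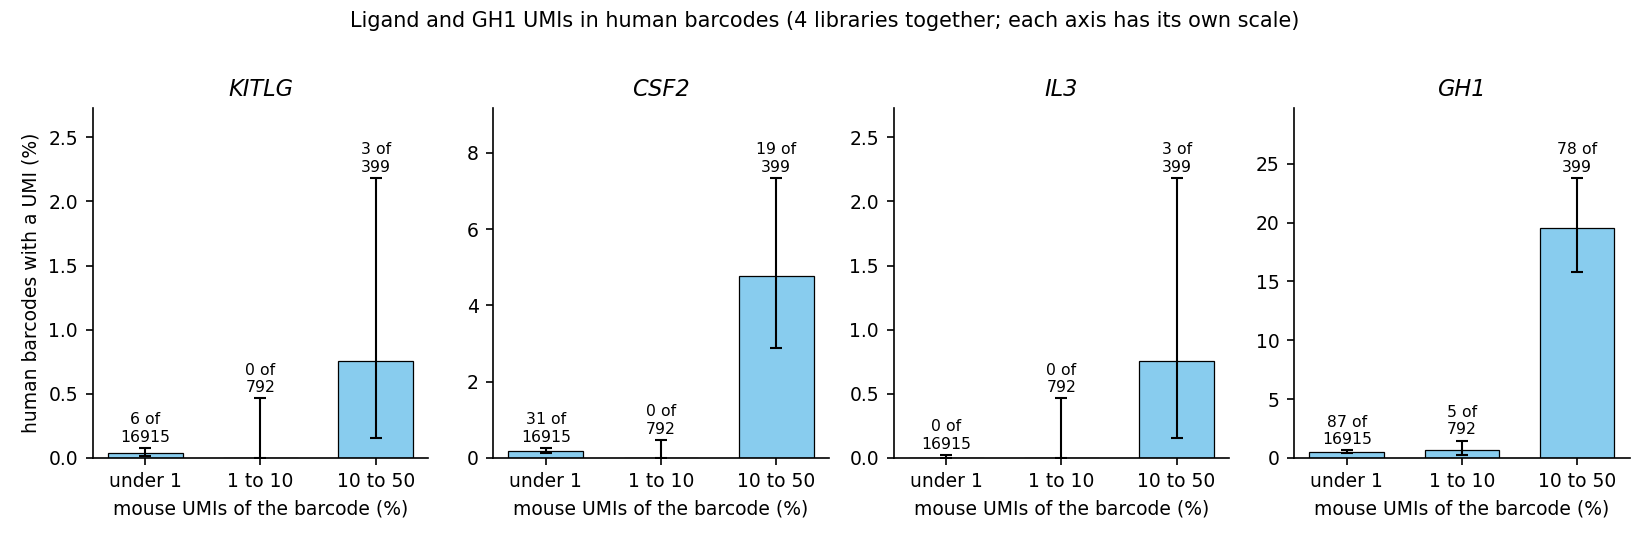
Ligand and GH1 detection in human barcodes grouped by their share of mouse UMIs (under 1%, 1% to 10% and 10% to 50%), all libraries together, with exact 95% binomial intervals. GH1 rises from 0.514% to 19.5% and IL3 from 0 to 0.752% between the first and the last range.

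Human cells were put into 12 classes by clustering without the 7 genes, and each class is called "-like" because its name was rebuilt here from marker lists. The 3 myeloid classes were small. Basophil or mast-like cells numbered 96, 118, 134 and 15 in the naïve, sham, SCI blood and SCI cord libraries, monocyte-like cells 140, 94, 18 and 7, and eosinophil-like cells 3, 6, 6 and 12. All 9 basophil or mast markers were detected in the first class, with MS4A2 (an IgE receptor chain) in 355 of 363 cells, and all 7 monocyte markers in the second. The monocyte-like class also held neutrophil markers, 7 of 8 being detected, the most frequent in 47 of 259 cells. The eosinophil-like cells are the least certain, since EPX, eosinophil peroxidase, had 1, 56, 4 and 0 UMIs in the 4 libraries and SIGLEC8, an eosinophil surface receptor, 1, 1, 1 and 16. All 7 eosinophil markers were detected, the most frequent in 12 of 27 cells, but so were 5 of 7 monocyte markers (S100A9 in 17 cells and S100A8 in 16) and 3 of 8 neutrophil markers (CAMP in 18 cells and CXCR2 in 4). The monocyte marker CD14 and the neutrophil markers FCGR3B, MPO, ELANE, LTF and MMP8 were at 0 in all 27. No human stem cell class was found.

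Within these cells, KITLG had 10 UMIs in cells with under 1% mouse UMIs, of which 9 lay in 5 basophil or mast-like cells. All 3 IL3 UMIs were in sham cells with over 1% mouse UMIs. CSF2, a T cell cytokine, was found in 26 of 4750 CD4 T-like cells, in 0.397%, 0.716% and 0.562% of those in naïve, sham and SCI blood. Among CD4 T-like cells with under 1% mouse UMIs these were 7 of 1665, 6 of 1460 and 6 of 1359. By contrast, none of 2798 B-like cells had a UMI, which allows up to 0.107%. In the cord, 46 CSF2 UMIs came from 2 of 118 cells, with 21 and 25 UMIs each. Both cells had under 1% mouse UMIs, were placed among the 13 cytotoxic T-like cells of the cord, and lacked CD3D, CD4, CD8A, NKG7 and GNLY, with TRAC at 2 and 1 UMIs. Both held IL7R (15 and 11 UMIs), KLRB1 (37 and 22) and XCL2 (7 and 17), with CD3E at 1 UMI in each. KRT86 (5 and 1), IL1R1 (1 and 3) and AREG (12 and 1) were also found in both, IL23R (3) in the first and KIT (4) in the second. Other clusterings placed the pair among NK-like or CD4 T-like cells, so that the class of the CSF2-rich cells is not certain.

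Receptor transcripts lay in the 3 myeloid classes. These classes were 649 of 17049 cells (3.81%) and held 96.5% of KIT, 83.1% of CSF2RA, 81.3% of CSF2RB and 81.4% of IL3RA UMIs. The classes differed in which receptor they held: KIT was found in basophil or mast-like cells, CSF2RA in monocyte- and eosinophil-like cells, and CSF2RB and IL3RA in all 3. Levels in human cells are given as CPM of human UMIs, ribosomal and mitochondrial genes left out. The shares of cells reported for KIT and CSF2RB are raw and after each cell was thinned to 1000 UMIs, since depth differed between libraries. Shares of cells with both genes of a pair are raw only.

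**Figure D4:**
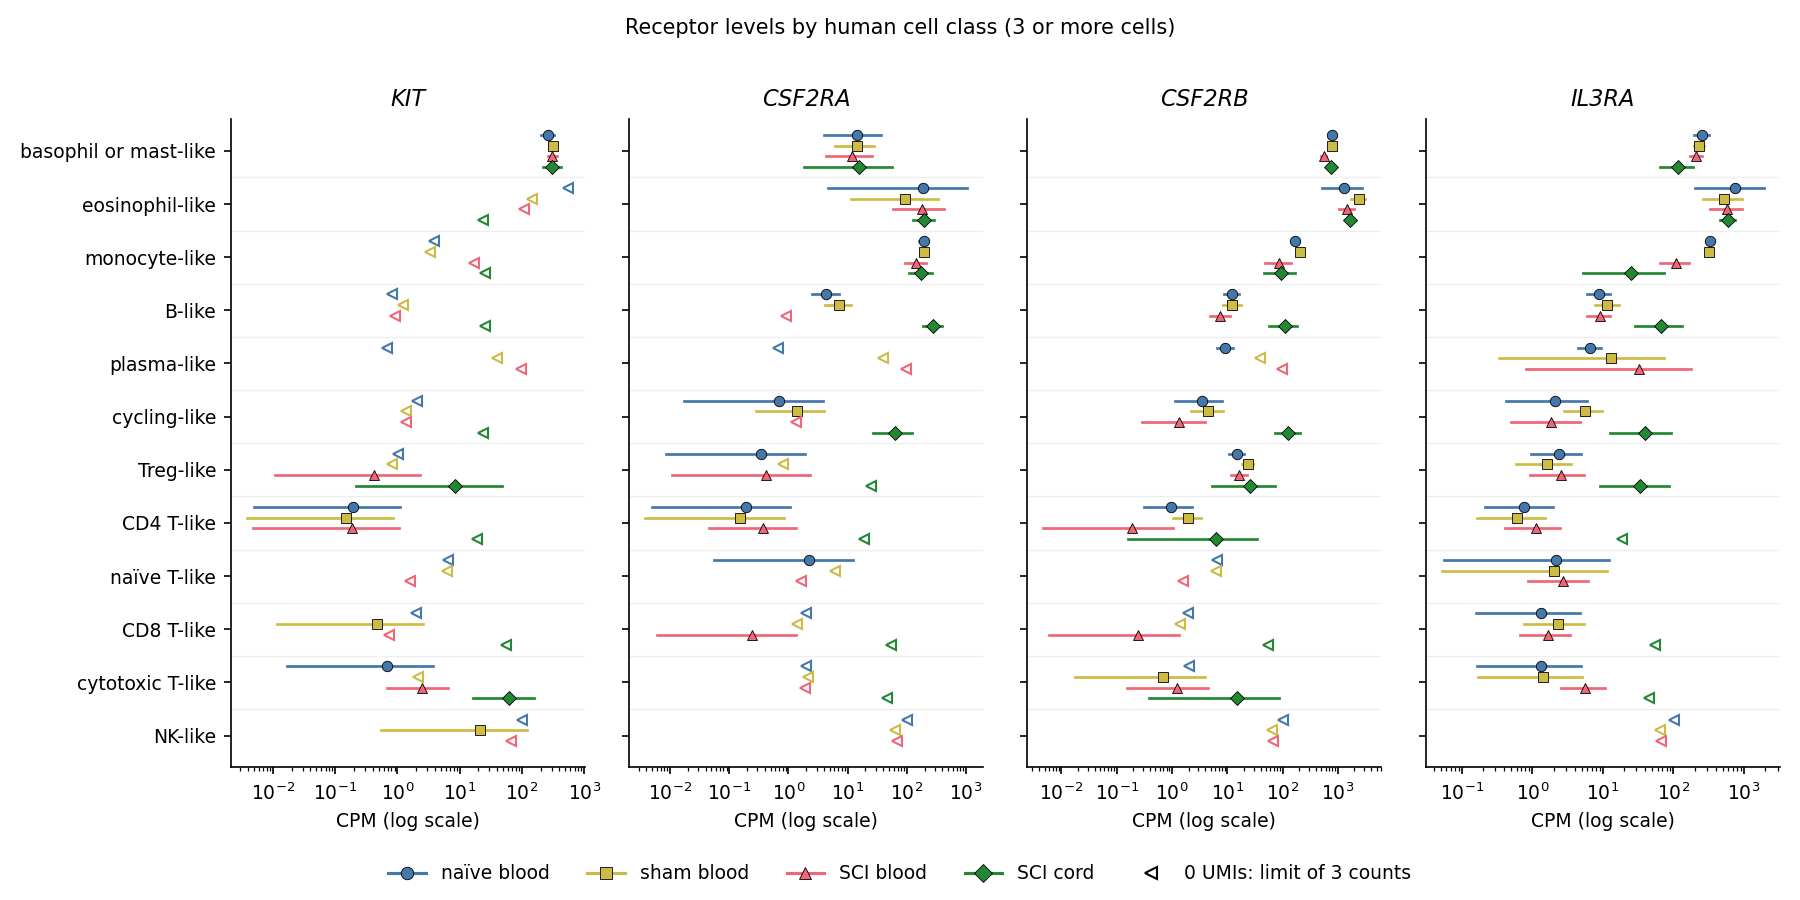
KIT, CSF2RA, CSF2RB and IL3RA CPM in each human class and library, with exact 95% Poisson intervals on a log axis. KIT stands in basophil or mast-like cells at 259 to 318 CPM in all 4 libraries, and monocyte-like IL3RA is at 328 and 319 CPM in naïve and sham blood but 108 in SCI blood and 25.2 in the cord.

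Within basophil or mast-like cells, KIT was at 259, 318, 309 and 306 CPM in the naïve, sham, SCI and cord libraries (71, 176, 155 and 40 UMIs), and the 4 intervals overlapped. A KIT UMI was found in 41.7%, 62.7%, 55.2% and 66.7% of these cells, or 16.7%, 22.9%, 20.1% and 13.3% after thinning. The class held 442 of 458 KIT UMIs. By contrast, KIT had 0 UMIs in 259 monocyte-like, 27 eosinophil-like, 2798 B-like and 397 plasma-like cells, and 3 UMIs in 4722 CD4 T-like cells of blood; the 0 in monocyte-like cells of the blood libraries together allows up to 1.62 CPM.

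CSF2RA, which binds GM-CSF, was a monocyte-like and eosinophil-like transcript. It was at 193, 192, 143 and 176 CPM in monocyte-like cells of the naïve, sham, SCI blood and SCI cord libraries (151, 173, 25 and 21 UMIs). Eosinophil-like cells had 148 CPM over the blood libraries together (63.7 to 291) and 199 in the cord, and thus did not differ from monocyte-like cells beyond counting error. Basophil or mast-like cells were far lower, at 14.6, 14.5, 11.98 and 15.3 CPM. Of the UMIs outside the myeloid classes, 66 lay in 9 of 2798 B-like cells. Of these 9 cells, 7 had a UMI of a dendritic cell marker and held 63 of the 66 UMIs. No other B-like cell had a CSF2RA UMI. With 33 UMIs these cells weigh most in the cord, where they held more than the 21 UMIs of monocyte-like cells.

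CSF2RB, the shared signalling chain, was found in all 3 myeloid classes. Eosinophil-like cells had 1303, 2375, 1474 and 1659 CPM, from 7, 50, 41 and 208 UMIs, the 7 in naïve blood coming from 1 cell. Basophil or mast-like cells had 796, 781, 553 and 742 CPM, from 218, 432, 277 and 97 UMIs. Monocyte-like cells had 170, 210, 85.5 and 92.4 CPM. Over the blood libraries together the order was eosinophil-like (1807, 1467 to 2202), basophil or mast-like (698, 654 to 745) and monocyte-like (182, 163 to 202), with no overlap between neighbours. Regulatory T-like (Treg-like) cells followed at 18.8 CPM (16.1 to 21.9), above B-like cells at 10.5 (8.57 to 12.8) and CD4 T-like cells at 1.11; a CSF2RB UMI was found in 5.58% of Treg-like and 3.44% of B-like cells, or 1.46% and 0.466% after thinning.

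IL3RA, which binds IL-3, had the highest CPM in eosinophil-like cells, at 745, 523, 575 and 590 CPM from 4, 11, 16 and 74 UMIs. Monocyte-like cells had 328, 319, 108 and 25.2 CPM, from 256, 287, 19 and 3 UMIs. Basophil or mast-like cells had 252, 231, 210 and 115 CPM, from 69, 128, 105 and 15 UMIs. In blood as a whole these classes were at 572 (388 to 811), 303 (278 to 329) and 227 (203 to 255), with no overlap between neighbours, followed by B-like cells at 9.58. The order of monocyte-like and basophil or mast-like cells differed between libraries, the former being higher in naïve and sham blood and the latter in SCI blood and in the cord. CD4 T-like cells were at 0.815 CPM.

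Clustering of the myeloid cells alone split the basophil or mast-like class. Mast-like cells, led by CMA1 (chymase) and TPSAB1 (tryptase), numbered 22, 45, 40 and 10, and basophil-like cells, led by CD200R1L and CCR3 among others, 72, 73, 85 and 5. KIT was at 474, 474, 497 and 318 CPM in mast-like cells and 178, 194, 224 and 280 in basophil-like cells, so that both held it. The log2 ratio of mast-like over basophil-like KIT was 1.41 (0.70 to 2.13) in naïve, 1.28 (0.83 to 1.76) in sham and 1.15 (0.66 to 1.65) in SCI blood. IL3RA was the reverse, at 76.9, 131, 77.4 and 76.7 CPM in mast-like and 329, 311, 315 and 203 in basophil-like cells, with log2 ratios of -1.995, -1.23 and -1.98 in blood. CSF2RB followed IL3RA, with log2 ratios of -1.27, -0.81 and -0.94. In the cord none of the 3 ratios (0.14, -1.40 and -0.52) differed from 0 beyond counting error, and the 5 basophil-like cells there had 2949 CPM of TPSAB1, against 103 to 175 in blood, so that the split is less sharp in the cord.

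**Figure D5:**
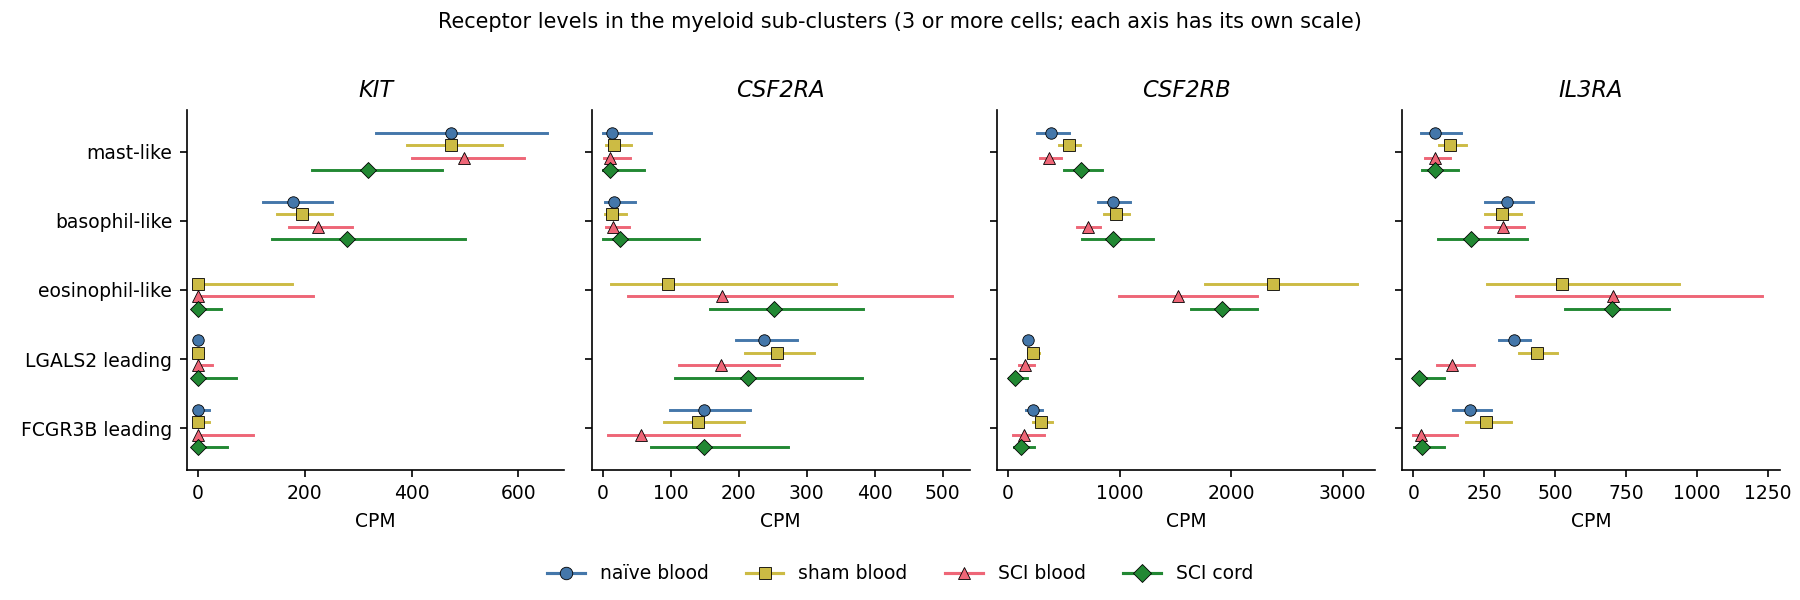
KIT, CSF2RA, CSF2RB and IL3RA CPM in the sub-clusters of myeloid cells by library, on linear axes with exact 95% Poisson intervals. In the 3 blood libraries KIT is higher in mast-like cells (474 to 497 CPM) than in basophil-like cells (178 to 224), and IL3RA is lower (76.9 to 131 against 311 to 329).

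Monocyte-like cells also split, into cells led by LGALS2 and MHC class II genes (82, 48, 15 and 3) and cells led by FCGR3B (41, 25, 4 and 4). The second were also led by CMTM2, DYSF, CYP4F3, HP, MGAM, S100A12 and S100A8, among which FCGR3B is a neutrophil marker and S100A8 a monocyte marker, and are given no cell type name; FCGR3B itself was found in 10 of their 70 blood cells. IL3RA was at 355, 436, 138 and 19.4 CPM in the first and 199, 256, 27.8 and 29.7 in the second, so that the lower SCI values were seen in both, the second with 4 cells in SCI blood. A further 53 cells were led by T cell genes, and 24.5% of them were marked as doublets against 3.02% of the other myeloid cells. IL5RA, the third alpha chain that pairs with CSF2RB, was found in basophil-like cells at 135, 152 and 156 CPM in blood and in mast-like cells at 128, 69.5 and 55.3, and had 0 UMIs in the LGALS2-led and FCGR3B-led cells.

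Chains that work together were also counted in the same cells. IL3RA and CSF2RB, the IL-3 receptor pair, were both found in 25 of 27 eosinophil-like cells (92.6%) and 131 of 259 monocyte-like cells (50.6%), as whole classes. In the sub-clusters, both were found in 106 of 235 basophil-like cells (45.1%) and 25 of 117 mast-like cells (21.4%). CSF2RA and CSF2RB, the GM-CSF receptor pair, were both found in 124 of 259 monocyte-like cells (47.9%) and 16 of 27 eosinophil-like cells. KIT and CSF2RB were both found in 70 of 117 mast-like cells (59.8%), and KIT and IL3RA in 24. These shares depend on depth, which leaves transcripts uncounted, while doublets left among the cells can raise them.

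Over all human cells, the receptors differed between the blood libraries. A gene was counted as past 2-fold at a log2 CPM ratio of at least 1 in size, among genes with at least 20 UMIs over both libraries; KITLG and IL3 had fewer. In these sums fewer cells of a type and less RNA per cell cannot be told apart, and the comparisons share control libraries. Of the 5 members counted between sham and naïve blood, KIT (8.66 against 3.30 CPM, log2 ratio 1.39, 0.99 to 1.81) and CSF2 (1.11 against 0.407 CPM, 1.41, 0.29 to 2.75) were past 2-fold higher, as were 2.21% of all genes, and none was past 2-fold lower (2.85% of all genes). Of the 23 sham CSF2 UMIs, 10 lay in cells with under 1% mouse UMIs, beside 8 of 9 in naïve blood, and among such cells the ratio was 0.39 and no longer past 2-fold. CSF2RB was at 39.3 against 22.4 CPM, with a log2 ratio of 0.81 (0.64 to 0.97).

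Between SCI and naïve blood, KIT (7.45 against 3.30 CPM, log2 ratio 1.17, 0.77 to 1.59) and CSF2 (0.971 against 0.407 CPM, 1.21, 0.07 to 2.57) were again past 2-fold higher, with 3.32% of all genes; among cells with under 1% mouse UMIs CSF2 was at 0.89 and not past it. CSF2RA was past 2-fold lower, at 1.85 against 7.95 CPM (-2.09, -2.64 to -1.60), with 4.38% of all genes. Between SCI and sham blood, CSF2RA (1.85 against 9.87 CPM, -2.40), IL3RA (9.62 against 23.5 CPM, -1.29, -1.53 to -1.05) and CSF2RB (18.7 against 39.3 CPM, -1.07, -1.25 to -0.90) were past 2-fold lower, with 3.38% of all genes, and no member was past 2-fold higher (1.93%). Beside these values, monocyte-like cells were 140 of 6332 cells in naïve, 94 of 4659 in sham and 18 of 5940 in SCI blood, and basophil or mast-like cells 96, 118 and 134. With the share of each class held equal in both libraries, over classes with at least 10 cells in each, the log2 ratios shrank, to -0.75 and -0.74 for CSF2RA in SCI against naïve and sham blood, to 0.30 for KIT in both sham and SCI against naïve blood, and to -0.59 and -0.39 for CSF2RB and IL3RA in SCI against sham blood. CSF2 was at 1.01 in sham and 1.14 in SCI blood against naïve blood with class shares held equal, but as given above neither call held among cells with under 1% mouse UMIs.

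Within classes fewer differences remained. In basophil or mast-like cells, no member was past 2-fold in either direction between blood libraries (of all genes tested there, 3.01% were past 2-fold higher and 3.95% lower for sham against naïve, 2.76% and 3.29% for SCI against naïve, and 2.71% and 2.95% for SCI against sham blood). CSF2RB was lower in SCI blood by a log2 ratio of -0.53 (-0.79 to -0.26) against naïve and -0.50 (-0.72 to -0.28) against sham blood, and KIT differed by 0.25 (-0.16 to 0.68) and -0.04 (-0.36 to 0.28). In monocyte-like cells IL3RA was past 2-fold lower in SCI blood, by -1.56 (-2.35 to -0.93) against naïve and -1.52 (-2.31 to -0.89) against sham blood, with 6.23% and 6.32% of all genes tested there, and no member was past 2-fold higher (5.13% and 4.86%) or differed by 2-fold between sham and naïve blood (2.95% higher and 1.67% lower). CSF2RB was at -0.95 (-1.87 to -0.22) against naïve blood and past 2-fold lower against sham blood, at -1.25 (-2.16 to -0.54). CSF2RA did not differ beyond counting error in these cells (-0.42, -1.11 to 0.18 and -0.41, -1.10 to 0.18). The SCI values rest on 18 monocyte-like cells, with 19 IL3RA and 15 CSF2RB UMIs.

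Between the cord and SCI blood, all 5 members counted were past 2-fold higher in the cord, as were 13.8% of all genes, with 9.29% of genes lower. As given above, only the cord was digested, so that processing cannot be told apart from site in any cord ratio. CSF2 (43.3 against 0.971 CPM) had a log2 ratio of 5.46, from 2 cells, and CSF2RA (83.8 against 1.85 CPM) of 5.49, CSF2RB (330 against 18.7 CPM) of 4.14, IL3RA (103.6 against 9.62 CPM) of 3.43 and KIT (42.4 against 7.45 CPM) of 2.52. Myeloid classes were 34 of 118 cells (28.8%) in the cord and 158 of 5940 (2.66%) in SCI blood. Class shares were then held equal over the classes that had 10 cells in both, which leaves out monocyte-, eosinophil- and B-like cells, among others. In the cord, eosinophil-like cells held 208 of 350 CSF2RB and 74 of 110 IL3RA UMIs, and B-like cells 33 of 89 CSF2RA UMIs. Over the classes left, the receptor ratios were 0.34 for KIT, 0.14 for CSF2RA, 0.50 for CSF2RB and -0.38 for IL3RA. These values cannot separate the effect of equal shares from the loss of those cells. In basophil or mast-like cells the cord differed from SCI blood by 0.43 (0.08 to 0.76) for CSF2RB, -0.83 (-1.76 to -0.08) for IL3RA and -0.00 (-0.56 to 0.49) for KIT, none of them past 2-fold (6.06% of genes higher and 12.2% lower).

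Few genes downstream of these receptors were past 2-fold between the blood libraries, where 1.93% to 4.38% of all genes were so in each direction. For lists this short a count of 0 is near that share. Of 21 signal transducers (JAK2, STAT5A, LYN, GRB2 and others), none was past 2-fold in any of the 4 comparisons over all cells. Of 12 negative regulators, none was past 2-fold between blood libraries, and 5 were higher in the cord, where 13.8% of all genes were: CISH (log2 ratio 1.12), SOCS1 (2.53) and SOCS2 (1.53), feedback inhibitors of JAK and STAT signalling, DUSP6 (1.53), an ERK phosphatase, and SPRED1 (3.55). Of 12 STAT5 and growth factor targets, OSM, which encodes the cytokine oncostatin M, was past 2-fold higher in sham than in naïve blood (1.49, 1.19 to 1.80) and lower in SCI than in sham blood (-1.19, -1.48 to -0.90). IL2RA was at -1.01 in the second of these. Of all genes, 2.21% were past 2-fold higher in the first and 3.38% lower in the second. In the cord PIM1 (1.04), OSM (4.36), ID1 (6.69) and IL2RA (2.14) were higher and MYC (-1.77) lower than in SCI blood, beside 13.8% and 9.29% of all genes. The medians of these 3 lists between blood libraries lay between -0.09 and 0.21, beside 0.01 to 0.07 for all genes.

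Within basophil or mast-like cells OSM was at 128, 396, 116 and 360 CPM in the naïve, sham, SCI blood and SCI cord libraries, a log2 ratio of 1.61 (1.11 to 2.19) for sham against naïve blood and -1.76 (-2.22 to -1.35) for SCI against sham blood. Several feedback genes were highest in this class in all 3 blood libraries. SOCS1 was at 1231, 969 and 852 CPM there, against 42.2, 32.4 and 28.0 in CD4 T-like cells, and SOCS2 at 1341, 1202 and 950, against 16.3, 19.9 and 20.5. DUSP6 was at 858, 725 and 689 CPM and PIM1, a STAT5-induced kinase, at 738, 673 and 621. Of the 12 negative regulators 3 were highest in basophil or mast-like, 3 in monocyte-like and 2 in B-like cells, and for 4 the class differed between libraries. CISH was at 243, 223 and 182 CPM in monocyte-like cells. Basophil or mast-like cells were highest for 1 of the 21 signal transducers and 4 of the 12 STAT5 and growth factor targets. The share of all genes highest in this class was not counted. In the cord, SOCS2 in basophil or mast-like cells was at 352 CPM, a log2 ratio of -1.42 (-1.90 to -0.99) against SCI blood, and DUSP6 at -1.66 (-2.29 to -1.13).

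Of the receptors for other haematopoietic growth factors, CSF3R and CSF1R were also lower in SCI blood over all human cells. Of the 6 on the list, 4 had enough UMIs in each comparison. CSF3R, the G-CSF receptor, was past 2-fold lower in SCI than in naïve (log2 ratio -3.09) and sham blood (-3.07), as was CSF1R, the M-CSF receptor (-1.58 and -1.42), beside 4.38% and 3.38% of all genes. In the cord CSF3R (5.78), CSF1R (4.75) and IL5RA (1.35) were higher than in SCI blood, as were 13.8% of all genes. CSF3R and CSF1R were highest in monocyte-like cells in every blood library. They were at 214, 171 and 108 CPM for CSF3R and 58.9, 38.9 and 85.5 for CSF1R in naïve, sham and SCI blood. Within monocyte-like cells the CSF1R value was thus highest in SCI blood. It rested there on 15 UMIs in 18 such cells, so that its direction is not certain. Of 7 other growth factors 2 could be compared, and CSF1, which encodes M-CSF, was higher in the cord (log2 ratio 4.31). GH1 in human cells had log2 ratios of 4.23 in sham against naïve blood, 2.09 in SCI against naïve and -2.13 in SCI against sham blood. However, of its 14, 253 and 60 UMIs in naïve, sham and SCI cells, 11, 58 and 11 lay in cells with under 1% mouse UMIs. Most of the sham and SCI UMIs thus did not. In naïve blood, 11 of the 14 lay in B-like cells (10 of 1277), against 0 in 1762 CD4 T-like cells. In sham blood both classes held GH1, in 2.98% and 2.21% of cells.

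Across 36 sums of a class in a library, the genes closest to each receptor among 12334 were named by Pearson's r of log2(CPM + 1), as a description, since sums of 1 library share their depth and classes share their cells' lineage. KIT was closest to ENPP3, a basophil and mast cell surface enzyme (0.94), followed by CCL18 (0.93), LIF (0.92) and VWA5A (0.90). CSF2RA was closest to TLR4 and LILRB2 (both 0.96), STON2 (0.95), CCDC170 and AC025048.4 (both 0.94). CSF2RB was closest to TMEM273 (0.93), SPINT1 (0.92), FTH1, LPCAT2 and C5AR2 (all 0.91). IL3RA was closest to C5AR1, FCGR2A, NFE2, ADGRE2 and KCNE3 (all 0.95). Among the receptors, CSF2RB had r of 0.89 with IL3RA and 0.79 with CSF2RA, while KIT had 0.57 with CSF2RB, 0.43 with IL3RA and 0.20 with CSF2RA.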

How the data were processed

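Single-cell 3′ libraries (10x) were made from 1 pool of sorted cells per group. The authors counted UMIs per gene and barcode with CellRanger 3.1.0 on a combined GRCh38 and mm10 reference (33538 human and 31053 mouse genes) and deposited these raw counts without normalisation. Everything else was computed from the counts in Python 3.11.15 (scanpy 1.11.5, anndata 0.12.19 and igraph 0.11.9 for clustering; scipy 1.17.1, numpy 2.4.6, pandas 2.3.3 and scikit-learn 1.9.0 for values and intervals; matplotlib 3.10.9 for plots). TMM factors, an alternative scaling, came from edgeR 4.0.16 in R 4.3.3.

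A barcode was taken as human or mouse by the species of over 50% of its UMIs. Human barcodes over 3 MADs low in UMIs or genes, or high in mitochondrial or ribosomal percent, were removed, as were Scrublet-marked doublets with over 3000 genes; marked doublets with fewer genes stayed in, which left 6332, 4659, 5940 and 118 cells. Clustering (2000 variable genes without the 7 members, 30 components, 15 neighbours, Leiden resolution 0.8; 0.5 for myeloid cells) was named from marker lists where at least 3 markers were detected in 10% of a cluster. Names are thus rebuilt and may differ from the study's. Median depth was 3699.5, 5234, 4656.5 and 9331 UMIs per kept cell.

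In human cells CPM left out ribosomal and mitochondrial genes, ratios had 0.5 counts added, and a ratio was read at 20 or more UMIs. A count of 0 was given the rate that 3 counts would have. Intervals cover counting error only, as UMIs of 1 library are no replicates. The ratio and interval functions were tested on simulated data. No sequences are shown, as no human sequence table was used here.

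The 7 genes and the lists were chosen with earlier results of these data known. Named genes were the members, their mouse counterparts, list genes past 2-fold or described with their list, and the 5 genes of highest r for each receptor among genes with at least 100 counts over sums with at least 10 cells. Some genes are not reported here. The genes of the CSF2-rich cord cells, PTPRC, EPX, SIGLEC8 and other class markers were named after their values were seen. Alternatives covered the species threshold, filters, doublets, clustering, thinning, scaling and count minimum. A restriction to cells with under 1% mouse UMIs was added after seeing the data.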

Additional observations from a re-analysis of the deposited data

How the results depend on the processing

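No paired analysis was possible because each group had 1 library, and for the same reason no library could be left out. The ligand rate in mouse barcodes (27.1 CPM for the 3 ligands together) was 27.6 with barcodes of over 90% mouse UMIs and 27.1 without shallow barcodes. Of the alternative values of receptor shares in thinned cells, 174 stayed within the interval of the reported value and 18 did not. Thinning to 500 UMIs lowered KIT in basophil or mast-like cells to 6.25%, 11.02% and 9.70% (naïve, sham and SCI blood), CSF2RB there to 30.2%, 26.3% and 14.9% and IL3RA there to 10.4% in naïve blood, and, in monocyte-like cells, CSF2RA to 6.43%, 9.57% and 0 (naïve blood, sham blood and cord), CSF2RB to 7.14% and 10.6% (naïve and sham blood) and IL3RA to 12.9% (naïve blood). With all marked doublets removed, IL3RA was at 0 in cord basophil or mast-like cells, and in monocyte-like cells CSF2RA was at 9.68% in sham and CSF2RB at 12.5% in naïve blood. With at least 90% human UMIs, CSF2RB in sham monocyte-like cells was at 12.4%, and with under 1% mouse UMIs, an alternative chosen after seeing the data, IL3RA in SCI basophil or mast-like cells was at 17.6%. Thinned shares of small classes are therefore loose.

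Genes past 2-fold numbered 737, 1121, 771 and 3099 (sham against naïve, SCI against naïve, SCI against sham, cord against SCI blood), 4680, 5149, 4671 and 8363 with at least 1 count and 279, 501, 274 and 1467 with at least 100. The number of member values past 2-fold fell from 13 to 3 with class shares held equal, all 3 of CSF2. IL3RA between cord and SCI blood reversed to -0.38, over classes without the eosinophil-, monocyte- and B-like cells. Scaling to UMIs per cell moved the median log2 ratio of all genes to 0.41, 0.13, -0.27 and 1.29 in the 4 comparisons, and no member changed direction with it. Under 1% mouse UMIs CSF2 was not past 2-fold in sham or SCI against naïve blood (0.39 and 0.89), and CSF2RB was in sham against naïve blood (1.00). Mean per-cell CPM gave CSF2RA at -0.15 in sham against naïve blood. Depth limited the naïve ligand values (20 neutrophil-like barcodes) and the SCI monocyte-like values (18 cells).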
